A study of Mus musculus with 6 samples.

Results

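Chloride, bicarbonate and water are moved across the colon wall by a small set of membrane proteins and enzymes, and 10 of their genes were described here in mouse colon RNA-seq. The genes were listed by function: the exchangers Slc26a3 and Slc9a3, the cotransporters Slc12a2 and Slc4a4, the channel Cftr, the carbonic anhydrases Car1, Car2 and Car4, and the aquaporins Aqp4 and Aqp8. They are 10 of the 24517 genes in the deposited count tables, and each of them passed the filter on low counts. The list follows their known roles and no threshold on a measured value. There were 3 libraries from NSD2fl/fl mice, in which Nsd2 is floxed and intact. Another 3 came from NSD2∆IE mice, in which Nsd2 is deleted in the intestinal epithelium. NSD2 is an enzyme of chromatin that dimethylates histone H3 at lysine 36. Every mouse was of C57BL/6J background and had eaten a high-fat and cholesterol diet (HFCD), for 16 weeks according to the labels, and the study's text gives a longer exposure. The methods name Villin-Cre as the driver, which acts in epithelial cells, so that muscle, nerve, fat and blood cells in these colon samples kept the gene. They describe male littermates that started the diet as young adults. Neither source says which stretch of the colon was taken.

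The surface of the colon absorbs sodium and chloride through paired apical exchangers. SLC9A3 (NHE3) takes up sodium in return for protons, and SLC26A3 (DRA) takes up chloride in return for bicarbonate. Water follows the salt, partly through aquaporins. Crypts can run the opposite way: SLC12A2 (NKCC1) and SLC4A4 (NBCe1) load chloride and bicarbonate from the blood side, and CFTR releases them into the lumen. Carbonic anhydrases supply both directions with protons and bicarbonate from carbon dioxide.

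Library totals lay between 38041832 and 38604680 counts, so depth was nearly equal and even the least abundant of the 10 genes had 1642 or more counts per library. Nsd2 itself ranged from 47.8 to 68.9 CPM (counts scaled to a common library size with TMM factors) in NSD2fl/fl and from 23.1 to 27.5 CPM in NSD2∆IE, without overlap. Xist was at 535 CPM or more in the 3 NSD2∆IE libraries and at 0.104 CPM or less in NSD2fl/fl, whereas Ddx3y was at 26.7 to 39.8 CPM in NSD2fl/fl and had 0 counts in NSD2∆IE. The NSD2∆IE libraries thus had the pattern of female mice and the NSD2fl/fl libraries that of males. This conflicts with the methods, which describe male littermates. Genotype and this difference in sex-linked transcripts cannot be told apart. The summed level of 6 general epithelial markers (Epcam, Cdh1, Krt8, Krt18, Krt19, Vil1) was 8856 to 14332 CPM in NSD2fl/fl and 8347 to 9897 CPM in NSD2∆IE, so colon epithelium was well represented in each library, and the mean of 6 of 6 was lower in NSD2∆IE. The summed level of 6 smooth muscle markers was 1338 to 3884 CPM in NSD2fl/fl and 4832 to 10394 CPM in NSD2∆IE, with 5 of 6 higher without overlap. The 6 markers of enteric neurons and glia summed to 32.4 to 55.5 CPM against 74.3 to 99.2 CPM (6 of 6 without overlap), and 4 of adipocytes to 11.4 to 17.7 CPM against 27.4 to 50.7 CPM (2 of 4). Surface colonocyte markers summed to 9033 to 13624 CPM in NSD2fl/fl and 6984 to 9723 CPM in NSD2∆IE, goblet cell markers to 21306 to 23855 and 16879.7 to 20323 CPM, fibroblast markers to 679 to 775 and 772 to 897 CPM, and leukocyte markers to 66.9 to 119 and 81.8 to 102 CPM. The part of these shifts in the values given for the transport genes was not tested. In such whole-tissue libraries, fewer cells of a type and less RNA per cell cannot be told apart.

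One further property separated the libraries. Hoxb13, a posterior Hox gene of the distal colon, was at 365, 0.706 and 340.5 CPM in NSD2fl/fl replicates 1 to 3 and at 310.0, 4.97 and 26.2 CPM in NSD2∆IE replicates 1 to 3. The 3 libraries at 310.0 CPM or more, NSD2fl/fl 1 and 3 and NSD2∆IE 1, are called Hoxb13-high below, and the other three, NSD2fl/fl 2 and NSD2∆IE 2 and 3, Hoxb13-low. These sets are not groups of the study, and they cross the genotypes unevenly. Hoxd13, another posterior Hox gene, followed the same division, with 11.5 to 38.7 CPM in the Hoxb13-high libraries and at most 0.169 CPM in the others. Hoxa13 divided them less sharply, with 18.0, 14.4 and 18.3 CPM in NSD2fl/fl 1, NSD2fl/fl 3 and NSD2∆IE 1. It had 3.76, 5.68 and 13.0 CPM in NSD2fl/fl 2, NSD2∆IE 2 and NSD2∆IE 3, so NSD2∆IE 3 lay near the Hoxb13-high libraries.

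Promoter sequences are shown for 3 of the genes to set beside their levels: Slc26a3 and Aqp8, which were both higher in every Hoxb13-high library than in any other, and Cftr, which was not. Each run is the 250 bases before a start annotated in RefSeq (GRCm38.p6) on the plus strand. The windows are chr12:31437969-31438218 for Slc26a3, chr7:123462044-123462293 for Aqp8 and chr6:18170437-18170686 for Cftr. A second annotation of GRCm38 gives Slc26a3 the span chr12:31390871-31473917, so its window belongs to a start inside that span. Capitals mark matches to any of 7 motifs searched on both strands.
Slc26a3: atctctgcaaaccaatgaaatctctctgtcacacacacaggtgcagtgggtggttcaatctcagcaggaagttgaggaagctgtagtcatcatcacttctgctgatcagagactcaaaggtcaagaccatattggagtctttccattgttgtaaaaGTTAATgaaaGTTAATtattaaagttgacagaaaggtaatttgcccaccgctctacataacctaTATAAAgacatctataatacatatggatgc
Aqp8: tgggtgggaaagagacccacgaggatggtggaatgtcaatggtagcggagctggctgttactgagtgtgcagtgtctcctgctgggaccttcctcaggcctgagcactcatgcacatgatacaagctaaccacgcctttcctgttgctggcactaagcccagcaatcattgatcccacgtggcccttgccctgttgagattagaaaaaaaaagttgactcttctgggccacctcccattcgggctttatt
Cftr: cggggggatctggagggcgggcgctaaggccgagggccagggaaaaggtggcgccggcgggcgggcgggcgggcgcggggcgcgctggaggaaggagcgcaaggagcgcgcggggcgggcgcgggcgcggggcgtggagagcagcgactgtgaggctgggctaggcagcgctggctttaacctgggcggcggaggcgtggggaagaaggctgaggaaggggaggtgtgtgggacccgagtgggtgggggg
The Slc26a3 window held TATAAA, the letters of a TATA box, from position -30 relative to the start, and GTTAAT, a short HNF1 element, from positions -94 and -84. TATAAA occurred in 12.3% and GTTAAT in 6.47% of 32536 promoter windows of the same length. The other motifs were TTTATNG (CDX, in 9.74% of windows), CTCGTAAA (HOX13, 0.111%), CCAATAAA (HOX13, 1.01%), CAAAGTCCA (HNF4, 0.387%) and AGATAA (zinc-finger factors of the GATA family, 9.97%), none of which occurred in the 3 windows. The Aqp8 and Cftr windows held no match to any of the 7. The windows also differed in base composition, with a GC content of 38.8% for Slc26a3, 52.4% for Aqp8 and 76.4% for Cftr, against a median of 52.4% over all windows. RefSeq windows were matched for 6 of the 10 genes, and none was matched for Slc12a2, Car1, Car2 and Aqp4. A match describes letters only.

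Set per length, as FPKM (reads divided by gene length and by the library total), the carbonic anhydrases had the highest means over the 6 libraries and the bicarbonate cotransporter the lowest. Car1 averaged 2378 FPKM, with a range of 130 to 5662, and its mean rested on 3 libraries. In NSD2fl/fl 1 it was at 130 FPKM, below Aqp8 (352) and Slc26a3 (198), and in NSD2fl/fl 3 at 202 FPKM, below Aqp8 (372). Car4 followed at 453 FPKM (255 to 757) and Car2 at 432 FPKM (257 to 821). These 3 had no fixed order, since Car1 exceeded Car4 in 3 of 6 libraries and Car4 exceeded Car2 in 2 of 6. Aqp8 stood at 273 FPKM (133 to 432) and Slc26a3 at 168 FPKM (84.1 to 334), in that order in 6 of 6 libraries. Aqp4 at 65.0 FPKM, Slc9a3 at 56.7 FPKM and Slc12a2 at 54.9 FPKM could not be ordered, because Aqp4 exceeded Slc9a3 in 3 of 6 libraries and Slc9a3 exceeded Slc12a2 in 4 of 6. Cftr at 19.2 FPKM (11.6 to 25.0) lay below Slc12a2 in 6 of 6 libraries, and Slc4a4 at 8.43 FPKM (4.75 to 10.49) lay below Cftr in 6 of 6.

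The main question was whether any of these genes differed between NSD2∆IE and NSD2fl/fl. By edgeR's quasi-likelihood test no difference passed for any of the 10. At an adjusted p under 0.05 it called 0 of 10 genes, where 0.0306% of the 16347 genes tested were called, and DESeq2 also called 0 (2.79% of the 16333 genes to which it gave an adjusted p). The study's own threshold, p below 0.05 before adjustment with a log2 fold change of more than 0.32 in size, was met by 0 genes upward (8.05% of all genes tested) and 0 downward (2.21%). The number with p below 0.05 before adjustment was 0 as well (11.1% of all genes). In CPM the groups overlapped for each of the 10, where 11.4% of all genes lay higher in NSD2∆IE without overlap and 7.28% lower. For Slc9a3 the overlap depended on the scaling. Its FPKM was at most 56.0 in NSD2fl/fl and at least 61.4 in NSD2∆IE. Fitted log2 fold changes were above 0 for 7 genes and below 0 for 3, with a median of 0.07 against -0.04 over all genes.

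**Figure D1:**
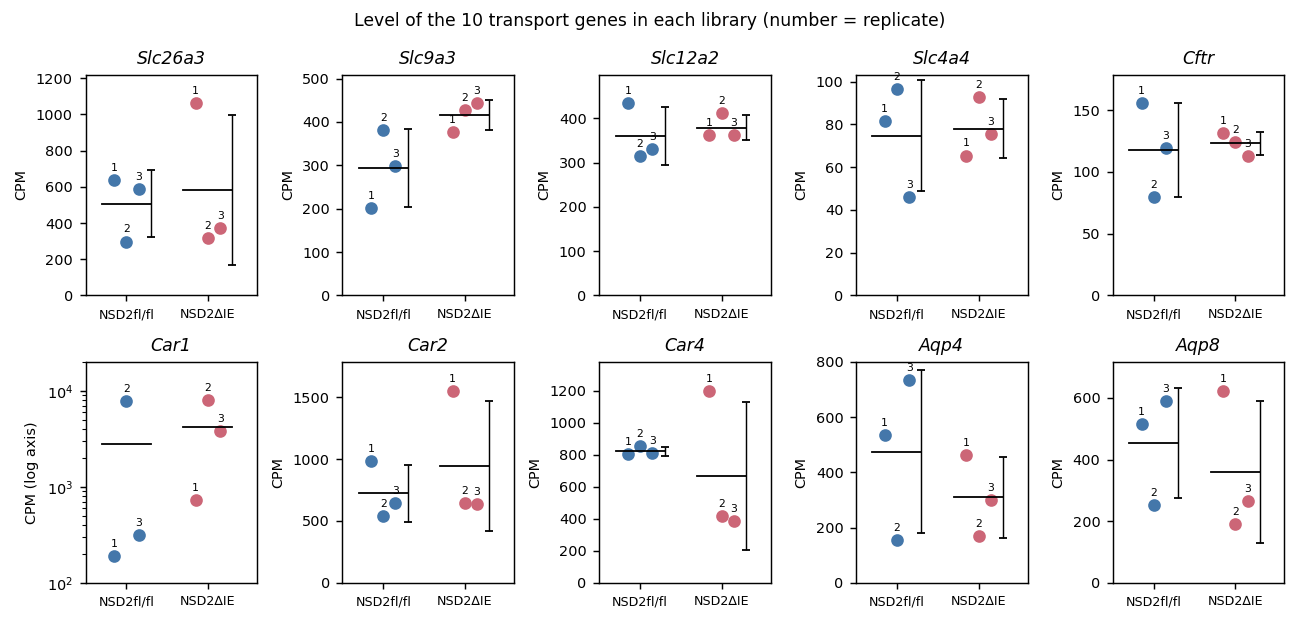
Level of each transport gene in CPM (vertical axes, from 0 except for Car1, which has a log axis) in the 3 NSD2fl/fl and 3 NSD2∆IE libraries, numbered by replicate. Lines are group means and bars are SD (n = 3; left out for Car1, whose SD exceeds the mean in NSD2fl/fl). Points of the groups overlap in each of the 10 panels, and Car1 spans 188 to 8057 CPM.

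Among the absorptive exchangers, Slc26a3, the chloride and bicarbonate exchanger whose loss causes chloride-losing diarrhoea, had 639, 298 and 587 CPM in NSD2fl/fl replicates 1 to 3 and 1061, 319 and 371 CPM in NSD2∆IE replicates 1 to 3. The highest value and the next to lowest both came from NSD2∆IE, and replicate 1 of NSD2∆IE stood above the rest. Group means were 508 ± 184 CPM and 584 ± 415 CPM (SD, n = 3 each), a log2 fold change of 0.20 (SE 0.52, edgeR adjusted p = 0.904). The log2 fold change was -0.56 without NSD2∆IE replicate 1 and -0.07 without NSD2fl/fl replicate 2, so its sign rested on single libraries.

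Slc9a3, the apical sodium and proton exchanger, came closest to a difference. It had 202, 382 and 299 CPM in NSD2fl/fl and 376, 429 and 443 CPM in NSD2∆IE. The 3 NSD2∆IE values were close together and 2 of them exceeded all NSD2fl/fl values, but NSD2fl/fl replicate 2 lay just above NSD2∆IE replicate 1. In FPKM these 2 libraries had the reverse order, at 56.0 and 61.4. Means were 294 ± 90.2 CPM and 416 ± 35.3 CPM (SD, n = 3 each), and the log2 fold change was 0.50 (SE 0.24, 95% interval -0.07 to 1.07, edgeR adjusted p = 0.50). The log2 fold change was above 0 under all 18 alternative fits (0.28 to 0.89) and met the study's threshold in 10 of them, while the adjusted p stayed between 0.19 and 0.99.

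On the secretory route, Slc12a2 varied least of the 10 genes, with a highest library 1.38 times the lowest. Slc12a2, the sodium, potassium and chloride cotransporter, had 434, 315 and 331 CPM in NSD2fl/fl and 363, 412 and 362 CPM in NSD2∆IE. No library stood apart, and the interval of its log2 fold change of 0.07 (SE 0.16, edgeR adjusted p = 0.885) ran from -0.32 to 0.47. Slc4a4, the sodium and bicarbonate cotransporter, had 81.8, 96.4 and 46.1 CPM in NSD2fl/fl and 65.4, 92.8 and 75.5 CPM in NSD2∆IE. NSD2fl/fl held both the highest and the lowest Slc4a4 library, and the log2 fold change was 0.06 (SE 0.28, interval -0.60 to 0.72, edgeR adjusted p = 0.948).

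Cftr, the apical chloride and bicarbonate channel of crypt cells, had 156, 79.5 and 119 CPM in NSD2fl/fl and 132, 124 and 113 CPM in NSD2∆IE. The NSD2∆IE libraries lay inside the range spanned by NSD2fl/fl. Its log2 fold change was 0.06 (SE 0.24, interval -0.50 to 0.62, edgeR adjusted p = 0.937). These intervals bound the size of a change in Slc12a2, Slc4a4 and Cftr without showing that the levels were equal.

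Of the carbonic anhydrases, Car1 varied more than any other of the 10 genes. Car1, a cytosolic form of the colon surface (chr3:14766216-14808368, minus strand, GRCm38), had 188, 7837 and 316 CPM in NSD2fl/fl and 723, 8057 and 3799 CPM in NSD2∆IE. Each genotype held libraries with high and with low Car1, and the highest library had 42.8 times the level of the lowest. Among all genes ordered by CPM, Car1 had rank 4 in NSD2fl/fl 2 and NSD2∆IE 2 and rank 8 in NSD2∆IE 3, but rank 130 in NSD2∆IE 1, 494 in NSD2fl/fl 3 and 905 in NSD2fl/fl 1. Its within-group SD of log2 CPM exceeded that of 99.4% of genes tested. The fitted log2 fold change of 0.59 (SE 1.45, interval -2.86 to 4.05, edgeR adjusted p = 0.898) compares group means, and the mean difference of log2(FPKM + 1) was 1.98. The fitted value was 4.06 without NSD2fl/fl replicate 2, 0.04 without NSD2fl/fl replicate 1, 0.09 without NSD2fl/fl replicate 3, 1.12 without NSD2∆IE replicate 1 and -0.30 without NSD2∆IE replicate 2.

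Car2, the other cytosolic form, near Car1 on the plus strand of the same chromosome (chr3:14886273-14900770), had 981, 542 and 643 CPM in NSD2fl/fl and 1554, 643 and 640.1 CPM in NSD2∆IE. NSD2∆IE replicate 1 was again the highest, and the other two NSD2∆IE libraries lay at the level of NSD2fl/fl replicate 3. The log2 fold change was 0.39 (SE 0.41, edgeR adjusted p = 0.755), and -0.17 without NSD2∆IE replicate 1. Car4, an enzyme anchored to the outer face of the apical membrane, had 802, 856 and 810.1 CPM in NSD2fl/fl and 1202, 417 and 385 CPM in NSD2∆IE. The NSD2fl/fl libraries lay close together for Car4 (823 ± 29.3 CPM, SD, n = 3), while NSD2∆IE held both the highest and the lowest values (668 ± 463 CPM, SD, n = 3). Its log2 fold change was -0.30 (SE 0.44, edgeR adjusted p = 0.824). Without NSD2∆IE replicate 1 it was -1.03, which met the study's threshold at an edgeR adjusted p of 0.216, but without NSD2∆IE replicate 2 or 3 it was -0.054 or -0.024.

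As a share of the summed FPKM of these 3 enzymes, Car1 made up 11.5%, 87.0% and 20.7% in NSD2fl/fl replicates 1 to 3 and 24.4%, 90.4% and 82.2% in NSD2∆IE replicates 1 to 3. Car2 and Car4 together therefore made up most of the sum in NSD2fl/fl 1, NSD2fl/fl 3 and NSD2∆IE 1, and little of it elsewhere. Car1 alone took 4.15%, 72.5% and 7.05% of the counts of all 10 genes in NSD2fl/fl and 11.0%, 74.2% and 56.3% in NSD2∆IE.

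**Figure D2:**
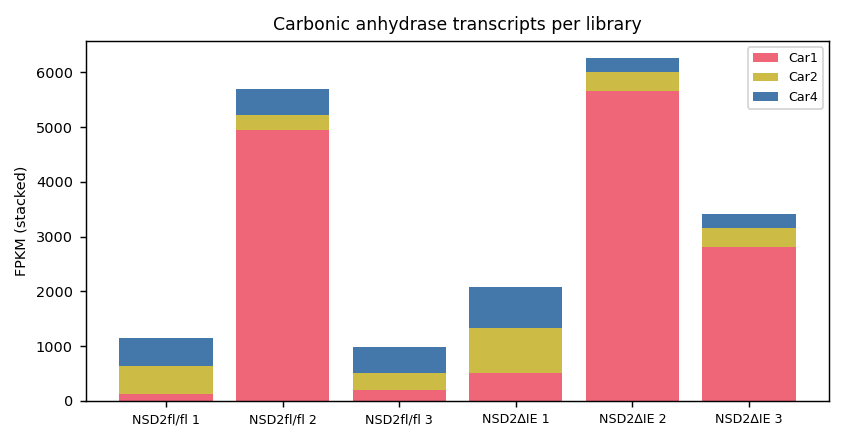
Stacked FPKM (vertical axis) of Car1, Car2 and Car4 in each of the 6 libraries (horizontal axis). Car1 makes up 82.2% or more of the bar in NSD2fl/fl 2, NSD2∆IE 2 and NSD2∆IE 3, and 24.4% or less in the other three.

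Both aquaporins were lower on average in NSD2∆IE, within the spread of the libraries. Aqp4, the water channel of the basolateral membrane, had 536, 154 and 734 CPM in NSD2fl/fl and 462, 168 and 300.4 CPM in NSD2∆IE. The lowest library was NSD2fl/fl 2 and the highest NSD2fl/fl 3, so NSD2∆IE lay inside the NSD2fl/fl range. The log2 fold change of Aqp4 was -0.61 (SE 0.59, edgeR adjusted p = 0.732), and without NSD2fl/fl replicate 2 it was -1.03, past the study's threshold at an adjusted p of 0.357. It was -1.02 without NSD2∆IE replicate 1, -0.32 without NSD2∆IE replicate 2 and -0.16 without NSD2fl/fl replicate 3. Aqp8, a water channel of the apical side, had 517, 252 and 591 CPM in NSD2fl/fl and 624, 192 and 265 CPM in NSD2∆IE. NSD2∆IE held both the highest and the lowest value. The log2 fold change of Aqp8 was -0.33 (SE 0.50, edgeR adjusted p = 0.829), and without NSD2∆IE replicate 1 it was -0.99, past that threshold at an adjusted p of 0.427. It was -0.62 without NSD2fl/fl replicate 2, -0.15 without NSD2∆IE replicate 3, -0.099 without NSD2fl/fl replicate 3 and -0.030 without NSD2∆IE replicate 2.

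**Figure D3:**
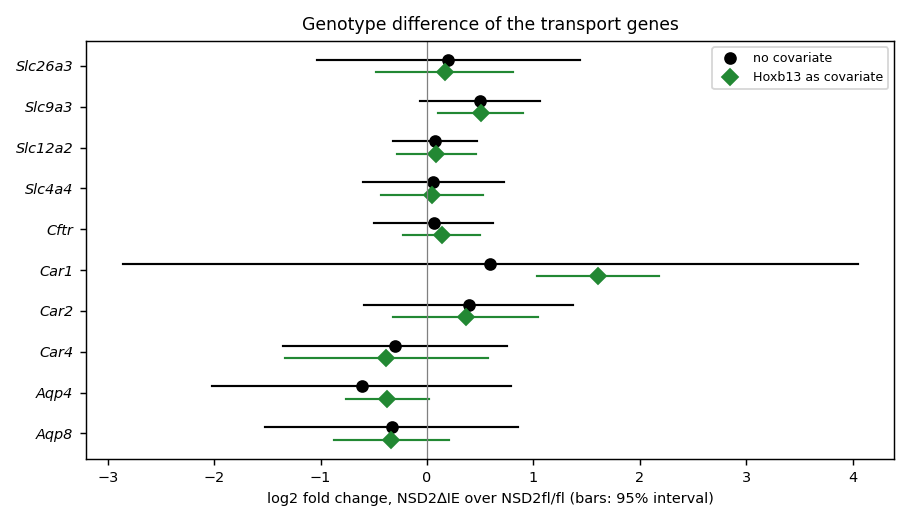
Fitted log2 fold change of NSD2∆IE over NSD2fl/fl (horizontal axis) for the 10 transport genes, with 95% intervals as bars, without a covariate (circles) and with log2 CPM of Hoxb13 as a covariate (diamonds). Without the covariate the 10 intervals include 0. With it the intervals of Slc9a3 and Car1 lie above 0.

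Ratios within a library, in which the scaling of libraries cancels, set absorption beside secretion and one enzyme or channel beside another. The log2 count ratio of Slc26a3 to Cftr was 2.04, 1.91 and 2.30 in NSD2fl/fl and 3.01, 1.36 and 1.71 in NSD2∆IE. NSD2∆IE again held the highest and the lowest ratio, and the mean difference was -0.06 (exact permutation test, two-sided, p = 1). The log2 ratio of Car4 to Car1 was 2.09, -3.19 and 1.36 in NSD2fl/fl and 0.73, -4.27 and -3.30 in NSD2∆IE, a mean difference of -2.37 (exact permutation p = 0.2). Car4 counts thus exceeded Car1 counts in NSD2fl/fl 1, NSD2fl/fl 3 and NSD2∆IE 1 and fell below them in the others. The log2 ratio of Aqp8 to Aqp4 was -0.05, 0.72 and -0.31 in NSD2fl/fl and 0.43, 0.19 and -0.18 in NSD2∆IE, a mean difference of 0.03 (exact permutation p = 1). With 3 libraries against 3 the exact test cannot go below p = 0.1, and 3 ratios were tested. The first of the 3 spanned 1.65 log2 units over the libraries, the second 6.36 and the third 1.03.

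Read by Hoxb13 rather than by genotype, the same values sorted more cleanly. In CPM, Slc26a3, Car2, Aqp4 and Aqp8 were higher in each Hoxb13-high library than in any Hoxb13-low library, as were 12.8% of all genes tested. For Car2 the sets were all but tied, at 643.30 CPM in NSD2fl/fl 3 and 643.28 CPM in NSD2∆IE 2. In FPKM its sets overlapped, with 309 in NSD2fl/fl 3 below 339 and 355 in NSD2∆IE 2 and 3. Slc9a3 and Car1 were lower in CPM in each Hoxb13-high library, as were 9.55% of all genes. The Slc9a3 sets lay close, with 375.9 CPM in NSD2∆IE 1 and 381.9 CPM in NSD2fl/fl 2. In FPKM they overlapped, with 61.4 in NSD2∆IE 1 above 56.0 in NSD2fl/fl 2. Slc12a2, Slc4a4, Cftr and Car4 overlapped between the sets. In mean CPM of the sets the 2 apical exchangers went opposite ways, and so did the 2 cytosolic carbonic anhydrases. Both aquaporins went the same way.

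The size of these differences varied greatly. Car1 averaged 409 ± 279 CPM in the Hoxb13-high and 6565 ± 2397 CPM in the Hoxb13-low libraries (SD, n = 3 each), a difference in mean log2 CPM of -4.15. For Aqp4 the means were 577 ± 141 and 207 ± 81.0 CPM (SD, n = 3 each; 1.52 on the log2 scale), and for Aqp8 577 ± 54.7 and 236 ± 38.9 CPM (1.30). Slc26a3 stood at 762 ± 260.3 and 329 ± 37.3 CPM (1.17), Car2 at 1059 ± 460.3 and 608 ± 57.8 CPM (0.71), and Slc9a3 at 292 ± 87.3 and 418 ± 31.9 CPM (-0.56). Slc12a2 differed by 0.05, the least of the 10. The relation to Hoxb13 was not tested, because the sets were formed after the values were seen and hold 3 libraries each. The Hoxb13-low libraries were themselves graded, from 0.706 CPM of Hoxb13 in NSD2fl/fl 2 to 26.2 CPM in NSD2∆IE 3.

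**Figure D4:**
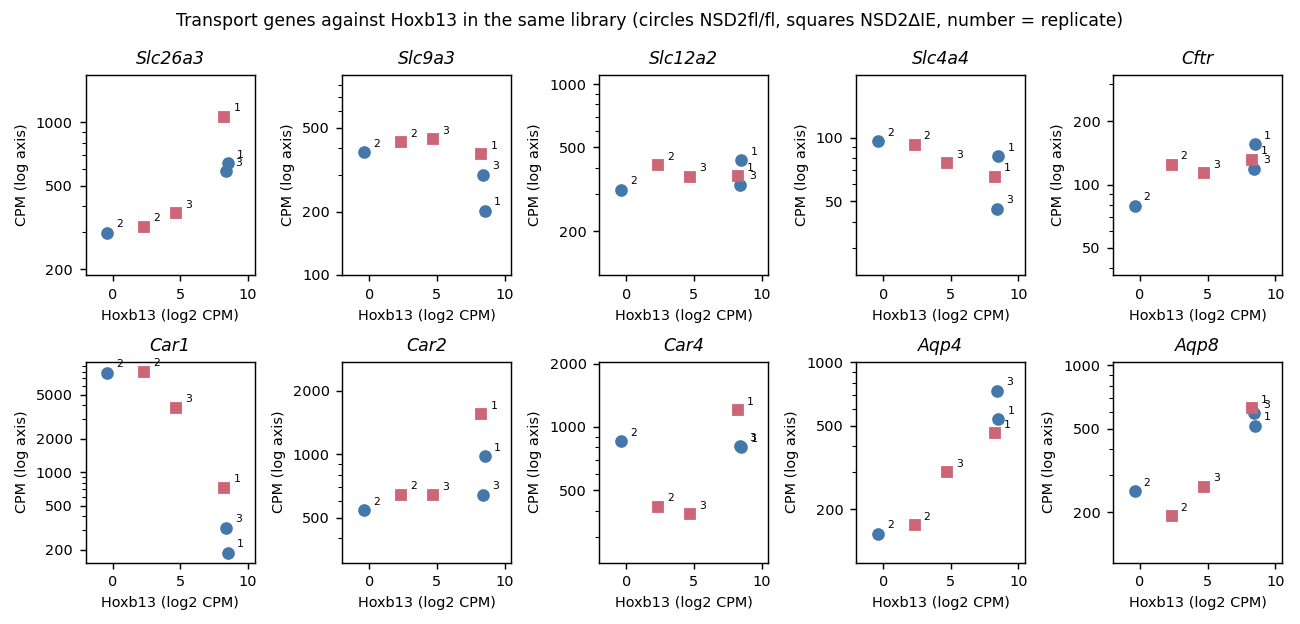
CPM of each transport gene (vertical log axes) against log2 CPM of Hoxb13 in the same library (horizontal axes), with NSD2fl/fl as circles and NSD2∆IE as squares, numbered by replicate. Car1 is at 7837 CPM in the library lowest in Hoxb13 and at 188 CPM in the highest, and Aqp4 and Aqp8 are higher in the 3 libraries on the right.

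Within the Hoxb13-high set the difference in mean log2 CPM between NSD2∆IE (1 library) and NSD2fl/fl (2 libraries) was 1.57 for Car1, and within the Hoxb13-low set (2 and 1 libraries) it was -0.50. Car4 went from 0.58 in the first set to -1.10 in the second, Aqp4 from -0.44 to 0.55, Aqp8 from 0.17 to -0.16 and Cftr from -0.05 to 0.58. Slc12a2 (-0.06 and 0.30) and Slc4a4 (0.09 and -0.20) changed sign as well. Only Slc26a3 (0.79 and 0.21), Slc9a3 (0.61 and 0.19) and Car2 (0.97 and 0.24) had one sign in both sets. These are values of 1 or 2 libraries and carry no test.

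A fit with log2 CPM of Hoxb13 as a covariate gave a log2 fold change of 1.61 for Car1 (SE 0.24, interval 1.04 to 2.18, edgeR adjusted p = 0.121). For Slc9a3 it gave 0.50 (SE 0.17, interval 0.10 to 0.90, edgeR adjusted p = 0.19). At an adjusted p under 0.05 this fit called 0 of the 10 genes, beside 0.0367% of all genes. These 2 genes met the study's threshold upward in that fit, where 12.1% of all genes did, and 0 met it downward, where 4.18% did. For the other 8 genes the interval still included 0. This fit assumes the same genotype difference at every Hoxb13 level, and the values of Car1 within the sets had opposite signs.

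For 6 of the 10 genes, the 3 genes whose log2 CPM followed theirs most closely over the 6 libraries, among 13268 compared, are given as a description, since the libraries share genotype and the Hoxb13 division. With 6 libraries and 13268 genes compared, a high r can also come from picking the highest values alone. Slc9a3, Slc12a2, Slc4a4 and Car2 were not examined in this way. For Car1 the closest were Prap1 (Pearson r = 0.997), Tmigd1 (0.996) and Hoxb8 (0.995). Hoxb8, a more anterior member of the cluster that holds Hoxb13, was at 24.3, 23.5 and 13.7 CPM in the Hoxb13-low libraries and at no more than 0.53 CPM in the others. For Slc26a3 they were Ndel1, Dcxr and Zfp446 (0.994 to 0.987), for Aqp4 Arhgap4, Foxn2 and Dok3 (0.996 to 0.994), and for Aqp8 Rab29, Bnipl and Pla2g4f (0.999 to 0.992). Car4 was followed by Cyp2d10, Sbds and Fam241b (0.983 to 0.979), and Cftr by Tecpr2, Atl3 and Tmem106b (0.992 to 0.983).

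The rest of the transport machinery was read from a list of 59 genes by function, of which 56 were in the tables and 45 passed the filter on low counts. At an adjusted p under 0.05, edgeR called 0 of the 45 (0.0306% of all genes) and DESeq2 called 2 (2.79%). Before adjustment, 7 of the 45 had p below 0.05 (11.1% of all genes). The study's threshold was met by 6 genes upward and 1 downward, beside 8.05% and 2.21% of all genes. The median log2 fold change over the 45 was 0.04.

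Of the 10 other carbonic anhydrases tested, 3 met the study's threshold upward and each of the 10 had a fitted log2 fold change above 0. Over all genes tested, 7145 lay above 0 and 9202 below, and over the 45 listed genes 25 and 20. Other roles were one-sided too, with 1 above and 11 below for the chloride channels and secretion partners and 4 above and 0 below for the other aquaporins. The smallest of the 10 values was 0.005 (Car15). Car14, a membrane-bound form, had 25, 20 and 7 counts in NSD2fl/fl and 75, 151 and 163 counts in NSD2∆IE, so that the groups did not overlap at a low level. Its log2 fold change was 2.76 (SE 0.53, edgeR adjusted p = 0.302, DESeq2 adjusted p = 0.000211). Car11, a related protein without enzyme activity, had 68, 73 and 41 counts in NSD2fl/fl and 155, 174 and 210 counts in NSD2∆IE, again without overlap, with a log2 fold change of 1.42 (SE 0.29, edgeR adjusted p = 0.302, DESeq2 adjusted p = 0.0019). Car3, a form known from fat and muscle, had 1.38, 0.339 and 6.26 CPM in NSD2fl/fl and 8.05, 9.18 and 22.0 CPM in NSD2∆IE (log2 fold change 2.30, SE 0.95, edgeR adjusted p = 0.441). These 3 genes were low beside the 3 carbonic anhydrases described first, at 0.787, 1.07 and 5.32 FPKM on average for Car14, Car11 and Car3. The muscle, nerve and fat markers given above were higher in the same NSD2∆IE libraries, and their part in these values was not tested.

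Among the anion exchangers, Slc4a3 had 6.49, 3.08 and 3.82 CPM in NSD2fl/fl and 7.67, 8.35 and 11.3 CPM in NSD2∆IE (log2 fold change 1.03, SE 0.32, edgeR adjusted p = 0.337), and it was the only 1 of 5 tested to meet the study's threshold. Slc9a3r2, a scaffold protein (NHERF2) that binds the sodium and proton exchanger, had 36.2, 44.0 and 38.8 CPM in NSD2fl/fl and 45.8, 49.96 and 57.4 CPM in NSD2∆IE. Its groups did not overlap, and its log2 fold change was 0.36 (SE 0.13, edgeR adjusted p = 0.386). Aqp1, the water channel of blood vessels and red cells, was the only 1 of 4 other aquaporins to meet that threshold, at 101, 141 and 83.2 CPM in NSD2fl/fl and 130.4, 182 and 168 CPM in NSD2∆IE (log2 fold change 0.56, SE 0.22, edgeR adjusted p = 0.429). Markers of endothelium summed to 126 to 161 CPM in NSD2fl/fl and 134 to 157 CPM in NSD2∆IE, and those of red cells to 18.8 to 34.5 CPM and 21.7 to 49.0 CPM.

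The 1 gene that met the threshold downward was Clca4b, of the family of regulators of calcium-activated chloride channels, with 2.03, 125 and 66.1 CPM in NSD2fl/fl and 1.26, 9.26 and 4.797 CPM in NSD2∆IE. NSD2fl/fl replicate 1 lay among the NSD2∆IE libraries, and the log2 fold change was -3.65 (SE 1.34, edgeR adjusted p = 0.399). It missed the threshold without NSD2fl/fl replicate 2 (-2.72) or 3 and without NSD2∆IE replicate 1 or 3. Reads of Clca4b and its close copy Clca4a may have been split between them. With the mean of the epithelial markers as a covariate the log2 fold change of Clca4b was -0.76 (edgeR adjusted p = 0.959). Of the 6 genes that met the threshold upward, Car14 and Car11 did so in all 18 alternative fits, Slc4a3 in 15, and Slc9a3r2, Aqp1 and Car3 in 14 each. With the epithelial marker covariate, the log2 fold change of Slc4a3 was 0.56 and that of Car3 was 1.05, both short of the threshold. The other fits in which one of these 4 missed it each left out a single library, and leaving out NSD2∆IE replicate 3 did so for each of them.

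None of the 6 regulators tested (Gucy2c, Guca2a, Guca2b, Prkg2, Vipr1, Adora2b) and neither sodium bicarbonate cotransporter tested met the study's threshold.

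**Figure D5:**
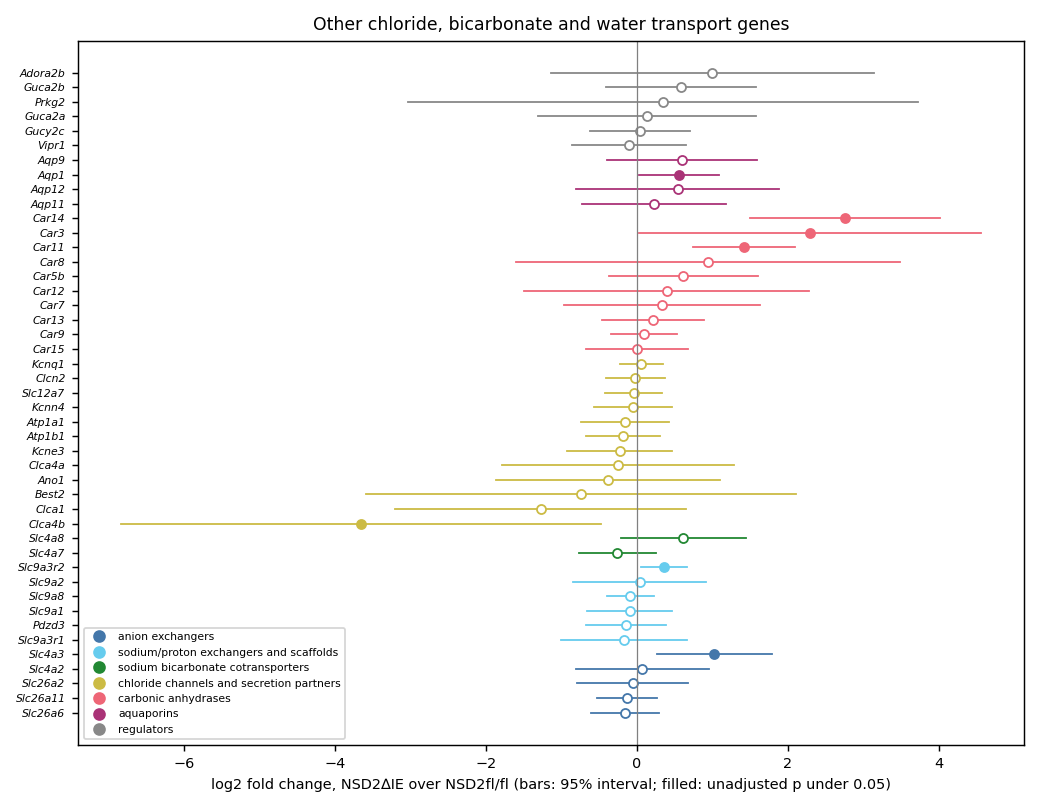
Fitted log2 fold change of NSD2∆IE over NSD2fl/fl (horizontal axis) for the 45 other transport genes tested, coloured by role, with 95% intervals as bars. Filled points have p below 0.05 before adjustment, which holds for 7 genes, 6 of them above 0 and Clca4b at -3.65.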

How the data were processed

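Colon RNA of NSD2fl/fl and NSD2∆IE mice was sequenced in 3 libraries each, with groups and replicate numbers from the labels. No label ties a library to a named animal, so p-values measure the spread between these libraries. The authors deposited a whole-number read count and an FPKM value per gene and library. The submitters' processing notes name fastp, HISAT2, HTSeq, R 3.2.0 and build mm10. The annotation and the use of strand are not given in the sources used here, and without strand the reads of overlapping genes cannot be told apart. FPKM values returned 1 length per gene in all libraries, so they rest on the same counts.

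The 10 genes, the 59-gene list, the marker lists and the tests were chosen with earlier results of these data known. Counts were tested with edgeR 4.0.16 in R 4.3.3 (filterByExpr, 16347 genes, TMM factors, quasi-likelihood test, two-sided, no covariate), with Benjamini-Hochberg adjustment over all genes tested. Log2 CPM used a prior count of 2, and log2 count ratios one of 0.5. Limma 3.58.1 and DESeq2 1.42.0 served as alternatives, beside other scalings, no filter, FPKM with a pseudocount of 1 or 0.1, a replicate block, 2 covariates and each library left out. Leaving out the genes of chromosomes X and Y, and the division by Hoxb13, were added after the data were seen. Of the 59-gene list, the text names the genes past the study's threshold, at most 6 in each direction by p. The genes of closest pattern are the 3 of highest Pearson r among genes with an average log2 CPM of at least 1. The fit was tested on simulated counts. A count of 0 allows up to 3 counts, and such limits cover counting error only.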

Additional observations from a re-analysis of the deposited data

How the results depend on the processing

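The common dispersion over the genes tested was 0.0967, a coefficient of variation of 0.311 between libraries. At an adjusted p under 0.05, 0 of the 10 genes passed under each of 18 alternatives. Under the study's threshold the count of higher genes rose from 0 to 1 (Slc9a3) with upper-quartile factors, library totals alone, DESeq2, limma-voom, log2(FPKM + 1) and log2(FPKM + 0.1). It rose to 2 (Slc9a3 and Car1) with the Hoxb13 covariate and with the epithelial marker covariate, which gave Car1 a log2 fold change of 4.91 (edgeR adjusted p = 0.845). Leaving out 1 library at a time gave 0 to 2 higher genes (2, Slc9a3 and Car1, without NSD2fl/fl replicate 2) and 0 to 2 lower genes (Aqp4 without NSD2fl/fl replicate 2, Aqp8 and Car4 without NSD2∆IE replicate 1). The cause of these changes was not tested.

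With the replicate number as a block, 2 of the 10 genes were past the study's threshold upward, Slc9a3 at 0.54 (SE 0.18) and Car1 at 1.87 (SE 0.70), with edgeR adjusted p of 0.316 and 0.343. Deviations from the group means correlated at 0.50, 0.64 and -0.17 for numbers 1, 2 and 3, and nothing in the labels ties equal numbers, so the libraries were not treated as pairs.

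Some log2 fold changes near 0 turned sign. That of Slc26a3 was -0.56 without NSD2∆IE replicate 1, -0.07 without NSD2fl/fl replicate 2, up to 0.50 with another library left out, and -0.24 in limma-voom. The epithelial marker covariate gave -0.11 for Slc12a2 and -0.25 for Cftr, and with 1 library left out the 2 genes ranged from -0.016 to 0.23 and from -0.16 to 0.31, lowest without NSD2fl/fl replicate 2. Slc4a4 ranged from -0.19 (without NSD2fl/fl replicate 3) over -0.08 (without NSD2∆IE replicate 2) to 0.28, Car1 from -0.30 (without NSD2∆IE replicate 2) to 4.06, and Car2 from -0.17 (without NSD2∆IE replicate 1) to 0.67. The mean difference of the log2 ratio ranged from -0.55 to 0.28 for Slc26a3 to Cftr and from -0.18 to 0.33 for Aqp8 to Aqp4 with 1 library left out, and from -4.01 to -1.36 for Car4 to Car1. Slc9a3, Car4, Aqp4 and Aqp8 kept their sign in all 18 alternatives, though with 1 library left out Car4 ranged from -1.03 to -0.024, Aqp4 from -1.03 to -0.16 and Aqp8 from -0.99 to -0.030.

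Of the 45 other transport genes, 2 passed an adjusted p under 0.05 with DESeq2 (Car14 and Car11, beside 2.79% of all genes), and 10 were past the study's threshold upward with the Hoxb13 covariate, or 2 to 12 with 1 library left out, the 12 without NSD2fl/fl replicate 2. Downward, the count was 0 with limma-voom, log2(FPKM + 1), log2(FPKM + 0.1) and the epithelial marker covariate, 2 with the Hoxb13 covariate, and 0 to 2 with 1 library left out. Leaving out chromosomes X and Y moved none of these counts.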

Other observations

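The 45 other transport genes also differed along the Hoxb13 division. In total, 9 of them were higher in every Hoxb13-high library than in any Hoxb13-low library (12.8% of all genes tested), and 14 were lower (9.55%). By role, 6 of the 12 chloride channels and secretion partners were higher and 0 lower, while 5 of the 6 regulators, 4 of the 10 carbonic anhydrases and 3 of the 4 aquaporins were lower. The following genes were chosen after their values were seen, and the relation was not tested. Best2, a bestrophin that conducts bicarbonate in goblet cells, had 106, 59.6 and 80.2 CPM in NSD2fl/fl 1, NSD2fl/fl 3 and NSD2∆IE 1, and 3.98, 7.47 and 14.2 CPM in NSD2fl/fl 2, NSD2∆IE 2 and NSD2∆IE 3. Clca1, a secreted goblet cell protein, ran from 12548 to 27461 CPM in the first set and from 2594 to 4744 CPM in the second. In the opposite direction, Car8, a relative of the carbonic anhydrases without enzyme activity, had 10.8, 10.7 and 19.1 CPM in the first set and 109, 143 and 89.6 CPM in the second. Guca2a, which encodes the hormone guanylin that regulates salt secretion, ran from 371 to 559.7 CPM in the first set and from 947 to 1592 CPM in the second.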
